A study of Mus musculus with 102 samples.

Results

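The H19 and Igf2 imprinted domain was described here as the CpGs that capture bisulfite sequencing covered on mm9 chromosome 7 between positions 149755000 and 149860000. The interval holds H19, its upstream control region and Igf2. It gave 275 CpGs of the 2177608 in the capture table, and all 275 positions read CG in the mm9 sequence. The rule for the members uses position alone, and the domain itself was chosen with earlier results of these data known.

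The cells were mouse embryonic stem cells on a C57BL6/J background, taken from 24 of the 102 samples of the study. TTKO cells carry mutations of Tet1, Tet2 and Tet3 made with CRISPR guides, come from 1 clone and hold floxed Dnmt3a and Dnmt3b alleles that were intact at day 0. Cre protein then removed the catalytic exons of both Dnmt3 genes, and TTKO cells were collected on 6 later days, of which day 4 was the first and day 29 the last, with days 8, 10, 13 and 17 between them. Excision was not complete in all cells. Values of a TTKO time course are listed below in the order of these 7 days, day 0 included. Wild-type cells were the parental line of the TTKO clone, with TET proteins and the same floxed but intact Dnmt3a and Dnmt3b alleles, and were measured at day 0 without Cre. Each group had 3 replicates, and the table holds 1 column per line and day, so every value below is taken as the authors' pooled value and carries counting error but no spread between replicates. Capture had no mock-treated cells, and the cells grew on feeders up to Cre and were feeder-free from the day after it, so loss of DNMT3, time and culture cannot be told apart between days in these columns.

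H19 encodes a long noncoding RNA that is also the host of the microRNA gene Mir675, and Igf2 encodes a growth factor of the insulin family. In mice the control region upstream of H19 is methylated on the copy inherited from the father. On the unmethylated maternal copy it binds CTCF, which insulates Igf2 from enhancers beyond H19. ZFP57 binds the methylated hexamer TGCCGC and helps embryonic cells to keep imprints, DNMT1 copies methylation at replication, DNMT3A and DNMT3B add it de novo, and TET proteins oxidise it. The reads do not separate the parental alleles here, so a level is the share of methylated reads over both copies.

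H19 (ENSMUSG00000000031.9) runs on the minus strand from 149764048 down to 149761434, and Igf2 (ENSMUSG00000048583.9) on the same strand from 149852721 down to 149836673, in mm9 with the GENCODE M1 annotation. Positions are given as bases upstream of the H19 start, which lead from H19 towards Igf2, or as bases inside H19 counted from that start. The captured CpGs lay in separate stretches: 46 in the H19 body, 12 within 2000 bases upstream of H19, 33 in a window of 2000 to 4000 bases upstream that was taken as the control region, 18 between this window and the 3′ end of Igf2, 162 in the Igf2 body and 4 upstream of Igf2. No captured CpG lay downstream of H19, nor between 40 bases inside the H19 start and 1049 bases upstream of it. In the window the captured CpGs ended 2950 bases upstream of H19, so its distal part was not analysed here. Median coverage of the domain was 119 reads per CpG at day 8 and 207 to 245 reads in the other columns, with single values between 51 and 906 reads.

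The control region window was searched on both strands for the core of the CTCF motif, CGNGGNGGC, and for TGCCGC. The core had 3 matches, and 5.76% of all 2000-base windows of mm9 held at least 1. The hexamer had 5 matches, and 10.9% of such windows held it. At 2 of the 3 core matches a hexamer overlapped the core by its last base. A match is a run of letters and not a measured binding site. The core matches are shown because the measured CpGs nearest to CTCF sites lie in the first and second of them, with 25 bases on each side, read 5′ to 3′ on the strand of H19 transcription and with the core in capitals.
CTCF core match 1, chr7:149766191-149766249, minus strand: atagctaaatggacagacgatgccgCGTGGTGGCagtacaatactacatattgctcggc
CTCF core match 2, chr7:149766646-149766704, minus strand: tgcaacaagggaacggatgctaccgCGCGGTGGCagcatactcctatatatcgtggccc
CTCF core match 3, chr7:149767916-149767974, minus strand: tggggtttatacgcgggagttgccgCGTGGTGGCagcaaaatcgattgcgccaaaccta

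The third match starts 3893 bases upstream of H19, and no captured CpG lay near it. The proximal part of the control region is shown because 13 of its CpGs were measured, here in capitals, and because it holds the first core match.
proximal control region, chr7:149766098-149766308, minus strand: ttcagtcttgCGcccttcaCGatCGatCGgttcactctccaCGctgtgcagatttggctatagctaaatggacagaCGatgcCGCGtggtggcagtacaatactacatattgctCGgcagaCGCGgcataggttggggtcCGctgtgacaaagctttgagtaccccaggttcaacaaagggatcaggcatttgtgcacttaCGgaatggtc

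**Figure D1:**
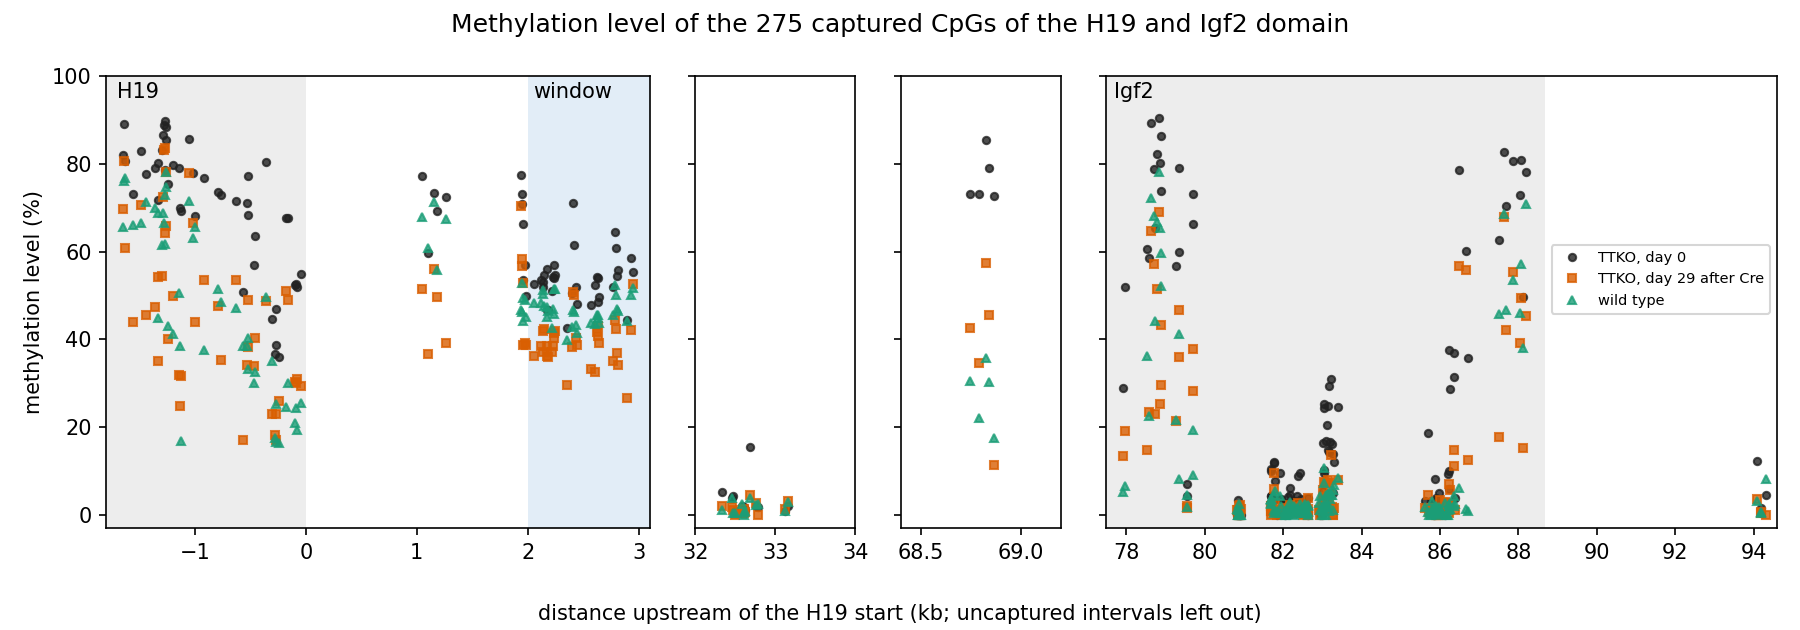
Methylation level in percent of each of the 275 CpGs (vertical axis) against distance upstream of the H19 start in kb (horizontal axis, uncaptured intervals left out), for TTKO cells at day 0, TTKO cells at day 29 after Cre and wild-type cells. Grey marks the gene bodies and blue the control region window, where the wild-type points lie between 39.9 and 52.3% and close to the TTKO points of day 0, while most CpGs of the Igf2 body are near 0 in every column.

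Methylation of the control region fell little after DNMT3 was removed. Over the 33 CpGs of the window the mean levels were 53.5, 48.4, 47.6, 46.8, 44.8, 42.7 and 39.4% from day 0 to day 29. The Wilson 95% interval at the median coverage of a CpG was 48.3 to 58.6% at day 0 and 34.3 to 44.7% at day 29, so the ends of the time course did not overlap. The window thus kept 73.6% of its day 0 level. All intervals cover counting error only: no molecular identifiers mark duplicate PCR reads, and neighbouring CpGs share reads.

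CpGs elsewhere in the table that started at like levels kept far less. The 188373 CpGs with 40 to 60% at day 0 went from a mean of 50.8% to 15.9% at day 29, and the median share kept was 29.3%, with a 5th to 95th percentile of 10.8 to 56.5%. In the window the share kept ranged from 60% to 94.9% over the 33 CpGs. The upper end was the CpG at 2950 bases, with 78 reads on day 29. Among window CpGs with at least 100 reads in every column the largest share was 83.7%. Set against all CpGs within 2 percentage points of the same day 0 level, every CpG of the window had a percentile of 93.2 or more for the share kept, with a median percentile of 99.0. These ranks are a description of the window, whose CpGs share DNA fragments.

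Single CpGs were tested with two-sided Fisher's exact tests on methylated and unmethylated reads, adjusted by Benjamini-Hochberg over the whole table with a threshold of 0.05, which compare pooled libraries. By day 29 the level had fallen at 30 of the 33 CpGs of the window (90.9%), and at 26 with over-dispersion between replicates. The exact test was passed by 59.3% of all CpGs of the table and 99.0% of those with 40 to 60% at day 0. The window therefore had no more calls than its day 0 level gave elsewhere. The difference lay in the size of the loss, which was 14.1 points in the mean of the window and 34.9 points over the CpGs with 40 to 60%.

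The 6 captured CpGs inside or within 10 bases of the core matches had levels close to those of the rest of the window. Their means on day 0, on day 29 and in wild type were 51.1, 39.4 and 45.8%, against 54.0, 39.4 and 46.8% at the other 27 CpGs, and 5 of the 6 fell by day 29 (3 with over-dispersion between replicates) while 0 were called lower in wild type. Of the CpGs of the table with 40 to 60% at day 0, 99.0% fell and 76.6% were lower in wild type. The CpG inside the first core match, 2175 bases upstream of H19, had 46.8, 45.2, 46.3, 42.0, 36.0, 39.2 and 36.3% from day 0 to day 29, and 45.0% in wild type. The 2 CpGs inside the second core match, at 2628 and 2630 bases, had 54.3 and 48.6% on day 0, 41.6 and 40.7% on day 29 and wild-type levels of 45.6 and 44.8%.

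Among window CpGs with at least 100 reads in every column, the CpG at 2630 bases kept the largest share of its level, 83.7%, and its difference between day 29 and day 0 did not pass the test (adjusted p = 0.0953 by the exact test). The CpG that kept the smallest share, 60%, was at 2900 bases and went from 44.5% to 26.7% (adjusted p = 0.000417 by the exact test). The CpGs just beside the core matches, at 2177, 2183 and 2632 bases, kept 68.6, 76.9 and 79.8%, and those inside them at 2175 and 2628 bases kept 77.6 and 76.6%. Captured CpGs inside a hexamer match numbered 2, at 2136 and 2177 bases, and kept 80.9 and 68.6% in that order. Of these motif CpGs, that at 2177 bases was below the window's overall 73.6% and the others were above it. This order was not tested.

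**Figure D2:**
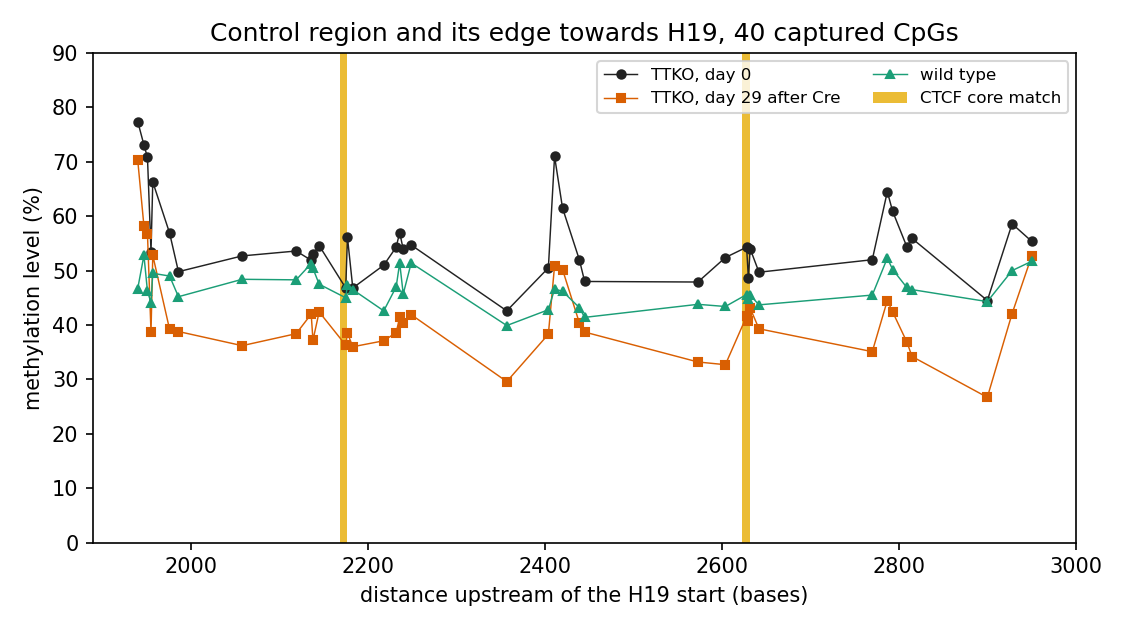
Methylation level in percent (vertical axis) of the 40 captured CpGs from 1940 to 2950 bases upstream of the H19 start (horizontal axis, bases), with lines joining CpGs of a column. The yellow bars mark the 2 captured CTCF core matches, and the TTKO levels of day 0 rise above the wild-type levels mainly at the edge towards H19 and near 2411 and 2787 bases.

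Wild-type and TTKO cells were close in the window. Wild type had a mean of 46.6%, which was 6.91 points below TTKO cells at day 0, while the CpGs with 40 to 60% had 25.4% in wild type and a difference of 25.4 points. A lower level in wild type passed the test at 7 of 33 CpGs (21.2%), against 44.7% of all CpGs and 76.6% of those with 40 to 60%. The share of window CpGs called was thus below both backgrounds. With an allowance for over-dispersion between replicates 4 of the 33 were called. Its size comes from the deeper amplicon data of the study, whose methods used a plain binomial error for capture.

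The 7 called CpGs were not those of the CTCF core. They included neighbours 2404, 2411 and 2420 bases upstream of H19, which are shown with their surroundings because their day 0 levels differed over a few bases, with the 5 captured CpGs in capitals.
control region with raised CpGs, chr7:149766443-149766503, minus strand: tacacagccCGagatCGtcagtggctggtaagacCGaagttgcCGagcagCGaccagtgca

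The CpG at 2411 bases had 71.0% in TTKO cells at day 0 (Wilson 95% interval 67.1 to 74.6%) and 46.6% in wild type (42.5 to 50.6%), the largest such difference of the window (24.4 points, adjusted p = 4.29e-16 by the exact test). Its neighbour at 2404 bases had 50.5 and 42.8%, and that at 2420 bases had 61.5 and 46.2%. In wild type the levels of these neighbours were alike within their intervals, and in TTKO cells the interval of the CpG at 2411 bases lay above the others. At day 29 the CpG at 2411 bases had 50.9%, still the highest of the window among CpGs with at least 100 reads in every column.

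Just proximal to the window, 7 CpGs between 1940 and 1986 bases upstream of H19 formed an edge with a higher TTKO level. Their mean was 64.0% on day 0, 50.7% on day 29 and 47.6% in wild type. The CpG at 1940 bases had 77.4, 61.5, 69.3, 70.0, 58.4, 64.6 and 70.3% from day 0 to day 29, and 46.7% in wild type. Its loss by day 29 did not pass the test (adjusted p = 0.272) and its difference from wild type did (adjusted p = 3.37e-07 by the exact test). Further towards H19, 5 CpGs between 1049 and 1260 bases upstream had means of 70.4% on day 0, 46.6% on day 29 and 64.6% in wild type, and all 5 fell by day 29 (59.3% of all CpGs). Of the CpGs within 2000 bases upstream of H19, the one at 1260 bases kept the smallest share, 54.1%, from 72.4% to 39.2%, with 67.3% in wild type.

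**Figure D3:**
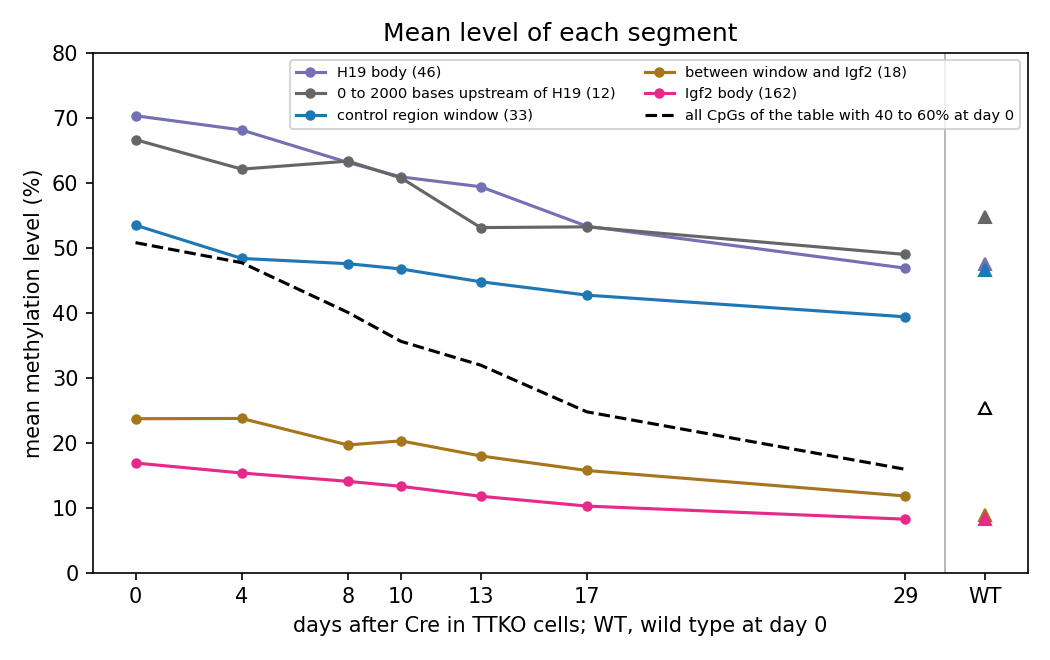
Mean methylation level in percent (vertical axis) of each segment against days after Cre in TTKO cells (horizontal axis), with the wild-type mean as a triangle at the right and the number of CpGs in brackets. The dashed line is the mean of the 188373 CpGs of the table with 40 to 60% at day 0, which ended at 15.9% where the control region window ended at 39.4%.

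The H19 body was more methylated than the control region in TTKO cells and lost more points in the mean, and most of it was lower in wild type. The mean over its 46 CpGs went through 70.3, 68.2, 63.2, 60.9, 59.4, 53.3 and 46.9%, and it was 47.5% in wild type. The level fell at 44 of the 46 by day 29 (95.7%, against 59.3% of all CpGs) and was lower in wild type at 39 of the 46 (84.8%, against 44.7%). Calls depend on the starting level, which was high here, so these counts do not set the H19 body apart. It kept 66.6% of its day 0 level, and 34 of the 46 CpGs kept more than the median CpG of like level.

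Within H19 the CpGs near the start had lower levels than those further inside. The 35 CpGs further than 310 bases inside the gene had a mean of 76.7% at day 0 and 55.1% in wild type, and the 11 CpGs from 40 to 308 bases inside had 50.04 and 23.3%. All 11 fell by day 29, to a mean of 29.9%, and 10 of the 11 were lower in wild type. The shares were 59.3 and 44.7% of all CpGs, and 99.0 and 76.6% of CpGs with 40 to 60% at day 0. The 11 CpGs had 35.9 to 67.7% at day 0, so some lay outside that band. Their shares kept had percentiles of 90.8 to 98.9 among CpGs with a like day 0 level, whereas their differences from wild type had a median percentile of 48.6. The split at this distance was chosen after the values were seen.

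The 4 CpGs nearest to the H19 start are shown because the only calls on day 4 inside H19 fell among them, with these CpGs in capitals in the first exon of H19.
first exon of H19, chr7:149763936-149764020, minus strand: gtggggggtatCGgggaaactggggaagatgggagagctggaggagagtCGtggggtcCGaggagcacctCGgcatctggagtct

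From 5′ to 3′ they lie 40, 78, 87 and 99 bases inside the gene. The CpG 78 bases inside had 52.0, 35.9, 29.2, 33.3, 36.6, 36.2 and 31.1% from day 0 to day 29, and 19.4% in wild type. The CpG 87 bases inside had 52.7, 39.0, 32.4, 37.1, 35.7, 34.2 and 30.2%, and 24.5% in wild type. In the mean of the 4 CpGs, 62.0% of the loss of 22.75 points was reached by day 4. The CpG 99 bases inside went another way, with 52.5% on day 0, 44.9% on day 4 and 30.4% on day 29, so most of its loss came later. The group was picked after its values were seen, so the share is a description.

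At day 4 a lower level passed the test at 3 CpGs of the domain, against 1.55% of all CpGs of the table and 4.94% of those with 40 to 60% at day 0. They were the CpGs 78 and 87 bases inside H19 (adjusted p = 0.0167 and 0.0433 by the exact test) and the CpG 2411 bases upstream of it (adjusted p = 0.0197). With over-dispersion between replicates none of the 275 passed, and the adjusted p of these 3 was then 0.262, 0.438 and 0.471. In the window 31 of 33 CpGs had a lower value at day 4 than at day 0, and since neighbours share reads this is no count of independent changes.

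CpGs inside H19 differed widely in how much they kept. Among those with at least 100 reads in every column, the CpG 1283 bases inside kept 93.5%, from 88.9% to 83.1%, while the CpG 565 bases inside kept 33.6%, from 50.9% to 17.1%. The latter had 46.9, 40.8, 32.1, 26.3 and 23.0% on the days between and 38.5% in wild type. Both passed the test at day 29 (adjusted p = 0.0262 and 7.06e-20 by the exact test), and with over-dispersion between replicates the call at the former was lost (adjusted p = 0.109). Between the CpGs 1131 and 1136 bases inside, a few bases apart, the day 0 levels were 69.3 and 70.0% and the wild-type levels 16.9 and 38.5%, with Wilson 95% intervals in wild type of 12.5 to 22.4% and 32.5 to 44.8% that did not overlap.

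Mir675, processed from the H19 transcript, held 3 of these CpGs in its hairpin, 999, 1016 and 1059 bases inside the gene. They had 68.0, 77.9 and 85.7% on day 0, 44.0, 66.4 and 77.8% on day 29 and wild-type levels of 65.6, 63.1 and 71.6%. The loss passed the test only at the CpG 999 bases inside (adjusted p = 0.000797 by the exact test), and none of the 3 was called lower in wild type (59.3 and 44.7% of all CpGs). Their coverage was 51 to 128 reads, among the lowest of the domain.

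**Figure D4:**
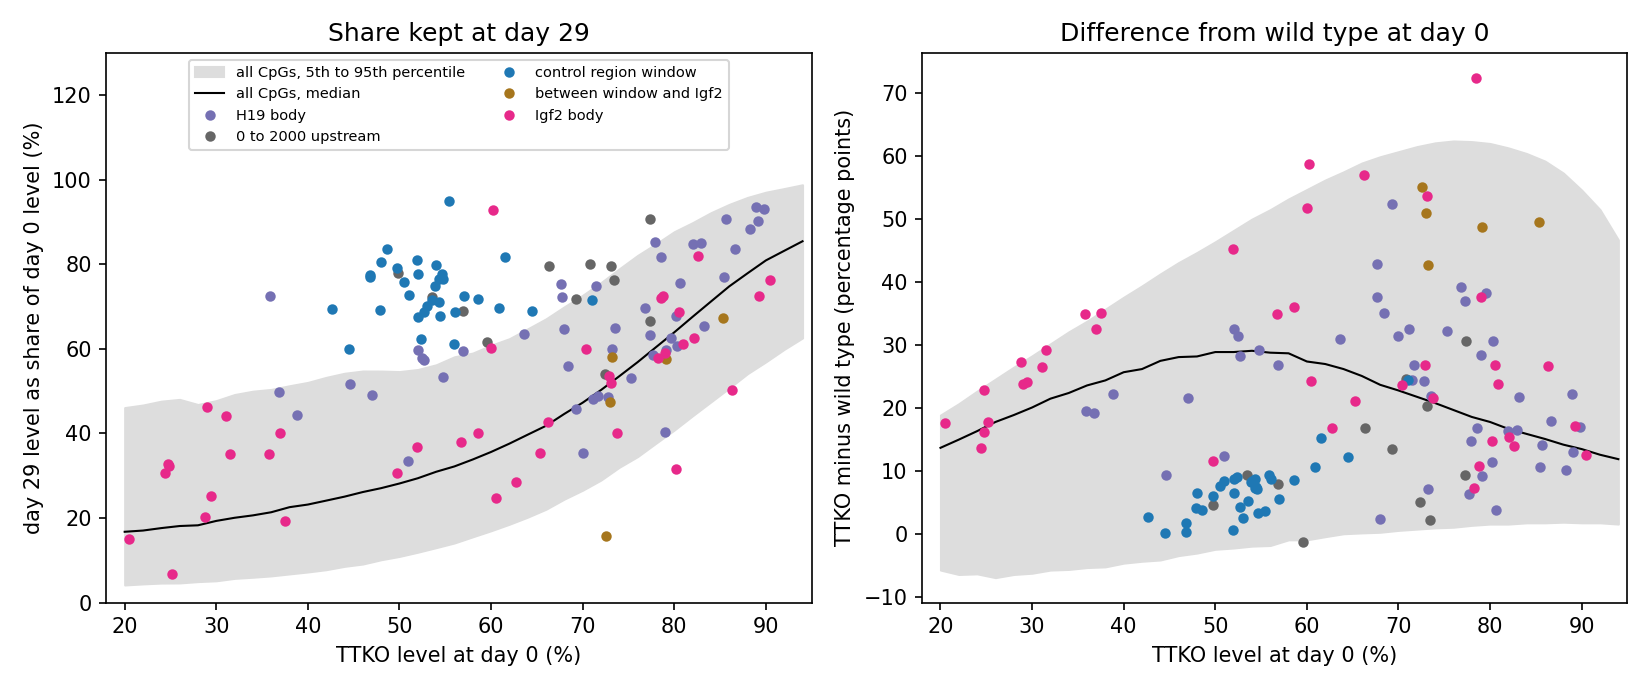
Left, the day 29 level as a percentage of the day 0 level, and right, the TTKO minus wild-type difference in percentage points, both against the TTKO level at day 0 in percent, for domain CpGs with at least 20% at day 0. Grey shows the 5th to 95th percentile and the black line the median of all CpGs of the table, and the blue points of the control region window sit mostly above the grey band on the left and near its lower part on the right.

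Between the control region and Igf2, 2 kinds of captured CpGs were found. From 32328 to 33157 bases upstream of H19, 13 CpGs had 1.0 to 15.5% in TTKO cells at day 0. The highest, at 32683 bases, had 15.5, 20.7, 14.2, 13.1, 9.3, 12.4 and 4.6% from day 0 to day 29 and 3.9% in wild type. It was the only one of the 13 that fell by day 29 (adjusted p = 0.000378 by the exact test), where 59.3% of all CpGs did. The 13 had a median of 2.0% at day 0 and 56 to 305 reads, which limits what can be detected.

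The other 5 CpGs, from 68748 to 68864 bases upstream of H19 and downstream of the 3′ end of Igf2, were methylated in TTKO cells with a mean of 76.6%. They had 27.3% in wild type and 38.3% at day 29, and all 5 were lower in both comparisons (59.3 and 44.7% of all CpGs). The share called depends on the starting level, so the count says little of this stretch. Their differences from wild type, 42.7 to 55.1 points, had a median percentile of 86.2 among CpGs of like level. The CpG at 68864 bases had 72.6, 68.2, 50, 51.6, 39.6, 40.5 and 11.4% from day 0 to day 29, and its share kept of 15.7% had a percentile of 0.228. It kept much less than the CpG at 68824 bases, which went from 85.3% to 57.5% and had 35.8% in wild type. Their intervals on day 29 were 7.25 to 17.5% and 50.2 to 64.4%. Among those of the 5 CpGs with at least 100 reads in every column, the one at 68792 bases kept the smallest share, from 73.0% to 34.7%, with 22.1% in wild type.

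The captured CpGs of the Igf2 body were largely unmethylated, and the annotation lists several Igf2 transcript starts in the gene. They began at position 149841969, so the 3′ part of Igf2, from 149836673, was not covered. Of the 162 captured CpGs, 123 had less than 20% at day 0, with means of 3.94% on day 0, 1.47% on day 29 and 1.46% in wild type. By day 29 a lower level passed the test at 27 of these 123 and at 38 of the 39 CpGs with at least 20%. A lower level in wild type passed at 21 of the 123 and at 37 of the 39. Over the whole Igf2 body the shares were 40.1 and 35.8%, below the 59.3 and 44.7% of all CpGs. At low levels the coverage of 51 to 533 reads limits what can be detected. Of the 162, 30 were annotated in a UTR and 132 in an intron of Igf2, and 57 of the latter lay in an exon of Igf2as, an antisense noncoding transcript.

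Around the transcript starts 83062 and 83162 bases upstream of H19 levels were intermediate in TTKO cells. The 21 CpGs from 83010 to 83396 bases had means of 16.2, 12.04, 10.2, 8.91, 6.92, 6.23 and 4.37% from day 0 to day 29, and 3.87% in wild type. The level fell at 16 of the 21 and was lower in wild type at 16 of the 21 (76.2% each, against 59.3 and 44.7% of all CpGs), in a group picked after its values were seen. On day 0 they ranged from 3.5 to 31.1%, and in wild type from 0.0 to 10.8%.

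The stretch from 85613 to 86711 bases upstream of H19 was near 0 for most of its length and methylated at its distal end in TTKO cells. The 4 CpGs from 86234 to 86364 bases with at least 20% had 28.8 to 37.5% on day 0, 5.8 to 14.8% on day 29 and 1.5 to 4.4% in wild type, and all 4, picked by their level, were lower in both comparisons (59.3 and 44.7% of all CpGs). The CpG at 86244 bases went through 28.8, 16.2, 19.7, 16.3, 11.5, 5.6 and 5.8% and had 1.5% in wild type. Beyond them the CpG at 86385 bases had 3.9% on day 0. The last 3 CpGs of the stretch had 78.5% at 86488 bases, 60.2% at 86672 bases and 35.8% at 86711 bases, and 6.1, 1.5 and 0.9% in wild type. The CpG at 86711 bases fell to 12.6% by day 29 and kept 35.2%. The sequence is shown because the CpGs at 86488 and 86672 bases, in capitals, had the largest differences from wild type of the Igf2 body.
Igf2 intron, distal CpGs, chr7:149850528-149850738, minus strand: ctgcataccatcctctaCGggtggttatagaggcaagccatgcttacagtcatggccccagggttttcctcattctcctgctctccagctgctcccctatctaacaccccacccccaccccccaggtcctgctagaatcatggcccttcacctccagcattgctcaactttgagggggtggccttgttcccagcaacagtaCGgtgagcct

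The CpG at 86488 bases had 78.5, 68.5, 63.4, 64.2, 62.5, 63.6 and 56.6% from day 0 to day 29, and 6.1% in wild type. Its Wilson 95% intervals were 74.0 to 82.5% on day 0, 51.4 to 61.6% on day 29 and 4.12 to 9.04% in wild type. Its difference of 72.4 points was the largest of the domain (adjusted p = 2.09e-96 by the exact test) and had a percentile of 99.3 among CpGs with a like day 0 level, where the median difference was 18.4 points. It kept 72.1% of its level after Cre. The CpG at 86672 bases had 60.2, 68.9, 74.3, 65.5, 59.8, 51.2 and 55.9% from day 0 to day 29 and 1.5% in wild type. It kept 92.9%, and its loss did not pass the test (adjusted p = 0.745 by the exact test). The CpGs at 86488 and 86672 bases had low levels in wild type and measured levels above 50% in the TTKO clone on every day. That at 86672 bases had fewer than 100 reads in at least 1 column, so its values near 50%, such as 51.2% on day 17, are uncertain. The lowest coverage among the last 3 CpGs of the stretch was 65 reads.

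Other parts of the Igf2 introns were methylated in both lines. The 10 CpGs from 78544 to 78895 bases upstream of H19 had means of 76.5% on day 0, 40.2% on day 29 and 56.5% in wild type, and all 10 were lower in both comparisons, against 59.3 and 44.7% of all CpGs. Here too the count is no sign that the stretch stands apart. Their shares kept, from 24.6 to 76.2%, differed between close neighbours. Part of the stretch is shown because its 4 CpGs, in capitals, lay within 100 bases and ended far apart.
Igf2 intron, chr7:149842863-149842953, minus strand: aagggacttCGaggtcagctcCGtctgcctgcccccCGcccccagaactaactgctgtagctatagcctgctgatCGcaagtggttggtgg

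From 5′ to 3′ these CpGs lie 78895, 78883, 78868 and 78829 bases upstream of H19. The CpG at 78829 bases had 90.5, 89.8, 87.2, 84.9, 80.5, 74.5 and 69.0% from day 0 to day 29, and 78% in wild type. The CpG at 78868 bases had 80.2, 67.4, 68.3, 60.6, 54.0, 42.6 and 25.4% and 65.4% in wild type. Their day 29 intervals were 64.1 to 73.5% and 20.2 to 31.5%, and the share kept had a percentile of 36.0 for the former and 1.02 for the latter. The CpGs at 78883 and 78895 bases ended at 43.3 and 29.6%, from 86.3 and 73.8%.

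Near the Igf2 transcript start 79353 bases upstream of H19, 7 CpGs were captured from 79265 to 79701 bases. Those at 79552 and 79556 bases had 4.4 and 7.1% in TTKO cells on day 0, and the other 5 had 56.7 to 79.0%, with 8.3 to 41.3% in wild type. The CpG at 79701 bases, with 60 to 86 reads per column, had 66.2% on day 0, 28.3% on day 29 and 9.2% in wild type. The 8 CpGs towards the far end of the gene, from 87496 to 88182 bases, had means of 72.2% on day 0, 41.6% on day 29 and 53.4% in wild type. Of these the CpG at 87623 bases kept 82.1%, from 82.6% to 67.8%, the largest share among Igf2 CpGs with at least 20% on day 0 and 100 reads in every column. The CpG that kept the smallest share among these was that at 86234 bases, which went from 37.5% to 7.2% and kept 19.2%. Upstream of Igf2, the 4 captured CpGs had 0.6 to 12.4% at day 0, and 2 of them fell by day 29 (59.3% of all CpGs), of which 1 was called with over-dispersion between replicates.

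**Figure D5:**
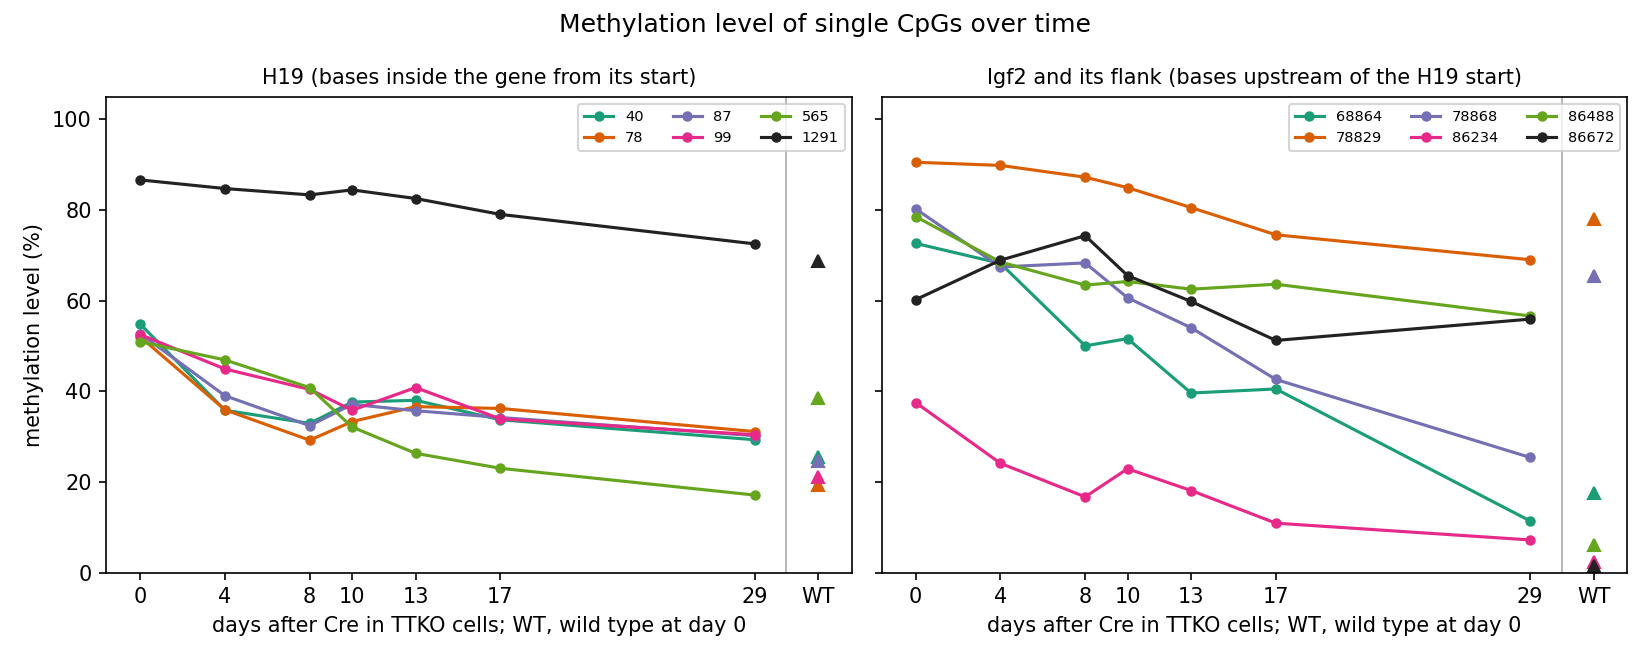
Methylation level in percent (vertical axis) of single CpGs against days after Cre in TTKO cells (horizontal axis), with wild type as triangles at the right. The CpGs 40, 78, 87 and 99 bases inside H19 (left) had values between 35.8 and 44.9% at day 4 and between 29.3 and 31.1% at day 29, and on the right the CpGs 86488 and 86672 bases upstream of H19 stayed above 50% in TTKO cells with wild-type values of 6.1 and 1.5%.

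Passive demethylation rates, *k*de, were inferred with the model of the study by 1 fit per CpG to the pooled columns, whereas the study fitted replicates separately. In this model *k*de is the rate of loss per unit of methylation, given here as log2 per day. Rates of 85 of the 275 CpGs had narrow credible ranges and were counted as low noise. Their median log2 *k*de was -5.60, where the 973714 low noise CpGs of the table had -4.78. In the control region window 13 of the 33 CpGs were low noise, with log2 *k*de from -6.43 to -5.74 and a median of -6.15. Over all 33 CpGs the median was -6.29. Of the 188373 CpGs of the table with 40 to 60% at day 0, 172104 were low noise, with a median of -4.09. The low noise median was -5.46 in the H19 body (34 CpGs) and -4.71 in the Igf2 body (26 CpGs).

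The lowest low noise rate of the domain was at the CpG 1291 bases inside H19, with log2 *k*de of -7.25 (95% credible range -7.86 to -6.77). The highest was at 86244 bases upstream of H19, in an Igf2 intron, with -3.54 (-4.09 to -2.97). With a beta-binomial error model none of the window CpGs was low noise, and without day 29 only 3 were. These rates and the shares kept come from the same time course, so they are no separate evidence.

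Values of another imprinted locus can be set beside the window. Within 1000 bases of the annotated start of Peg3, an imprinted gene methylated on the maternal copy, 74 CpGs had means of 45.8% on day 0, 36.0% on day 29 and 38.7% in wild type and kept 78.7%. No captured CpG lay within 1000 bases of the annotated starts of Snrpn and Mest. Over the whole domain, 158 of the 275 CpGs (57.5%) had fallen by day 29 and 118 (42.9%) were lower in wild type, close to the 59.3 and 44.7% of all CpGs. None of the 275 was called higher, and higher calls were rare in the table too, with 3729 and 19743 of the 2177608 CpGs. The lowest TTKO minus wild-type difference, at 82950 bases upstream of H19, was -4.3 points, between 0.0% in TTKO cells (0 methylated of 90 reads, Wilson upper limit 4.09%) and 4.3% in wild type, and it did not pass the test (adjusted p = 0.155 by the exact test).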

How the data were processed

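The authors captured genomic DNA with methylation probes, sequenced it after bisulfite conversion, aligned the reads to mm9 and deposited, per CpG and column, a methylation level in percent and a coverage, which is a count of reads without normalization. Per the file headers there is 1 column per line and day with no replicate number, which was taken to join the 3 replicates of a group. How they were combined is not given: columns go down to a coverage of 50 reads, and the methods state that minimum per replicate. The table also holds the authors' rates, confidence classes and TET activity, which were not used here. Methylated reads were recovered as coverage times level, whole within 0.05 percentage points at 100% of values. The authors' amplicon tables of fractions hold no CpG of the domain. Of the 88 listed amplicon regions 1 lies in the distal control region window, and the authors filtered it out because its calls varied.

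Fisher's exact tests ran over all 2177608 CpGs in numba 0.67.0, with Benjamini-Hochberg adjustment. The tests were checked on simulated counts. Other steps, the rates included, used numpy 2.4.6 and scipy 1.17.1 under python 3.11.15, with tables in pandas 2.3.3. Rates were inferred on a grid of 6400 combinations of 80 rates from 0.00107 to 2 per day, under a binomial likelihood. The de novo rate decayed by 0.5 per day, each simulated course was a mixture with a weight of 8% on its starting level, for unexcised alleles, and failed conversion was set to 0.0025. A rate was low noise where both 95% credible ranges were under 2 on the log2 scale and the probability at the border of the grid was under 0.08. Figures were drawn with matplotlib 3.10.9. Stretches, motifs and the annotation came from mm9 (NCBIM37) and GENCODE M1.

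Named CpGs were those at CTCF core or hexamer matches, the highest and lowest share kept per segment among CpGs with at least 20% at day 0 and 100 reads in every column, the extremes of the wild-type difference and of the rates. Other CpGs were picked after their values were seen. The domain, segments and lists were chosen with earlier results of these data known. Alternatives covered coverage minimums, over-dispersion of 0.0055, a minimum difference, Bonferroni adjustment, other averages and windows, and other rate models.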

Additional observations from a re-analysis of the deposited data

How the results depend on the processing

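Replicates are joined in the capture columns, so the tests cover counting error and compare pooled libraries. No paired analysis was possible because each column joins its replicates and the amplicon tables, which keep them apart, hold no CpG of the domain, so the planned comparison of Cre with mock there was not run. Of 64 alternatives, 57 moved a value or count by less than the limit set. The count of CpGs that fell by day 29 was 158, and it was 93 of 103 CpGs with at least 150 reads in every column and 64 with Bonferroni adjustment. The count lower in wild type was 118, and it was 65 and 56 in the same settings, where fewer CpGs were tested or the threshold was stricter. At day 4 the count of 3 became 0 with over-dispersion and 0 with Bonferroni adjustment. With over-dispersion 141 CpGs fell by day 29 and 108 were lower in wild type. All 32 alternatives of the window's mean levels stayed inside the counting interval, and the share kept by day 29 was 72.6 to 74.75%, with 79.9% kept when day 17 was used instead. The median log2 *k*de was -5.05 with the beta-binomial model, which left 33 low noise CpGs. It was -5.60 to -5.33 when each day after day 0 was left out in turn.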
